A study of Mus musculus with 21 samples.

Results

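The 10 histone deacetylase genes described here were taken by name from a table of nascent RNA in cultured mouse cortex: Hdac1, Hdac2, Hdac3 and Hdac8 (class I), Hdac4, Hdac5, Hdac7 and Hdac9 (class IIa), Hdac6 (class IIb) and Hdac11 (class IV). They are 10 of the 24984 genes of the table, and all 10 were among the 16959 genes that passed the filter on low counts and were tested. Class I was compared with class IIa, and the other members are given one by one.

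Histone deacetylases remove acetyl groups from lysines of histones and other proteins. Of the class I enzymes, Hdac1 and Hdac2 act in the nucleus within several corepressor complexes, Hdac3 is the enzyme of the NCoR/SMRT complex, and Hdac8 works outside such complexes. Class IIa enzymes have little deacetylase activity of their own, bind MEF2 transcription factors, and move between nucleus and cytoplasm. When kinases of the CaMK, protein kinase D and SIK families phosphorylate them, 14-3-3 proteins hold them in the cytoplasm, which links them to calcium and synaptic activity in neurons. Hdac6 is mainly cytoplasmic and deacetylates tubulin, and Hdac11 is the sole class IV enzyme.

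The assay was BrU-seq: bromouridine given to living cells enters newly made RNA, which is then captured by that label and sequenced. Cortical cultures of CD1 mice were used at day 17 in vitro, and every group received 2 mM bromouridine for the final 30 min. Cultures were first incubated for 30 min in either the solvent DMSO or 25 µM of MM401, a peptidomimetic that blocks the binding of the H3K4 methyltransferase MLL1 to WDR5. They were then given 40 µM bicuculline-methiodide, which blocks GABA-A receptors and raises network activity, or sterile water. The 7 groups were DMSO with bicuculline for 1 h, DMSO with bicuculline for 4 h, DMSO with water for 4 h, and MM401 with bicuculline or water for 1 h or 4 h. Each had 3 biological replicates of mixed sex per the study's design text, and whether these were separate dissections is not given in the sources used here, so p-values measure the spread between these libraries. A DMSO water group at 1 h was not analysed here. Both DMSO responses therefore use the same water libraries of 4 h, and at 1 h treatment and duration differ together.

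Replicate 3 of MM401 with water at 4 h held 316741 counts, 0.503% of the median of the other libraries, and was left out, so that group has 2 libraries. The 20 libraries used held 49886348 to 87939384 counts. The activity-induced genes Fos, Npas4, Arc, Nr4a1 and Bdnf were all higher with bicuculline in all 4 comparisons with water, by 1.09 to 4.43 on the log2 scale. Marker genes of several cell types moved with bicuculline. Summed neuronal markers (8 genes) were at 4722 to 5865 CPM in water and 5542 to 7472 CPM in bicuculline libraries, and at 6956 to 7472 CPM in DMSO with bicuculline at 4 h. Astrocyte markers (8 genes) were at 1102 to 1642 CPM against 1368 to 1713 CPM, and at 1 h under MM401 at 1102 to 1373 CPM against 1628 to 1696 CPM. Oligodendrocyte lineage markers (9 genes) were at 168 to 196 CPM in water and 195 to 226 CPM in bicuculline. Markers of rarer cells were low throughout: microglia (8 genes) at 33.9 to 43.5 CPM against 31.5 to 52.4 CPM, vascular cells (6 genes) at 8.37 to 11.5 CPM against 10.8 to 13.9 CPM, and fibroblasts (4 genes) at 1.82 to 5.24 CPM against 2.07 to 4.23 CPM. Cldn5 and Lum were at 0 in at least 1 library. Markers of GABAergic neurons (7 genes) summed to 345 to 400 CPM in water and 523 to 705 CPM in bicuculline. Their part in the results below was not tested. Among the DMSO water libraries, replicate 1 stood apart over the genes of the table, and for Hdac9 as described with that gene. The chi-square of its counts per degree of freedom was 45.6 against replicate 2 and 78.5 against replicate 3. Between replicates 2 and 3 it was 18.6.

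The promoters of Hdac5, Hdac4, Hdac9 and Hdac11 are shown first, chosen with their responses known. Each is the 250 bases before an annotated start, from RefSeq on GRCm38.p6, read 5′ to 3′ on the gene's strand. Capitals mark matches, on either strand, of the GC box (GGGCGG), the CCAAT box (CCAAT), the core of the cAMP response element (TGACG), an AP-1 site (TGANTCA) or the MEF2 site. Of 32851 promoter windows of this length, 32.7% hold a GC box, 33.8% a CCAAT box, 17.8% TGACG, 6.75% the AP-1 site and 2.92% the MEF2 site. A match describes letters and is not a measured binding site, and whether it bears on a response was not tested.
Hdac5, chr11:102230173-102230422, minus strand: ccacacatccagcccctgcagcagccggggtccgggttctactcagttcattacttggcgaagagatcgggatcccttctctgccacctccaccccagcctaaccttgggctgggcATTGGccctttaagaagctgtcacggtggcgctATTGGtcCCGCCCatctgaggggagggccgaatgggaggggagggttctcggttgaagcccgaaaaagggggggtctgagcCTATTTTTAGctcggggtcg
Hdac4, chr1:92180342-92180591, minus strand: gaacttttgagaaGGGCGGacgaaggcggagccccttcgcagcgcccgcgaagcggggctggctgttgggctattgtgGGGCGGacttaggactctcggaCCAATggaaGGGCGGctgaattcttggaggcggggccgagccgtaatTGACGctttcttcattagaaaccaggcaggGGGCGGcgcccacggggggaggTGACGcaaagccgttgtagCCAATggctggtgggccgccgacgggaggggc
Hdac9, first start, chr12:34917096-34917345, minus strand: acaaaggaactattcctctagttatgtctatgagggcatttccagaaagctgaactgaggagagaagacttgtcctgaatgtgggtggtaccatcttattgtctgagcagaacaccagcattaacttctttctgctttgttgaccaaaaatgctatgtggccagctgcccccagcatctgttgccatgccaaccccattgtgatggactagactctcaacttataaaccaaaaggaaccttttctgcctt
Hdac9, second start, chr12:34528890-34529139, minus strand: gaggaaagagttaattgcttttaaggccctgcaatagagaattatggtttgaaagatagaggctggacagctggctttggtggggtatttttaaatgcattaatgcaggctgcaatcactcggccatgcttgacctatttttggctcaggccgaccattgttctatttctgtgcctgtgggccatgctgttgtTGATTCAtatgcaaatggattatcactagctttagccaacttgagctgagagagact
Hdac11, chr6:91156565-91156814, plus strand: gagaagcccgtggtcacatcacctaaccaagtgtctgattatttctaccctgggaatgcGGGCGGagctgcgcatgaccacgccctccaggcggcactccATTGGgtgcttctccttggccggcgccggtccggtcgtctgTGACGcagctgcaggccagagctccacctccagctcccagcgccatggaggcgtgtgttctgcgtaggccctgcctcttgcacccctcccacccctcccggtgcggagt
The Hdac5 window has the MEF2 site with its first base 20 bases before the start, besides a GC box and 2 CCAAT boxes. The Hdac4 window has TGACG at 103 and 51 bases before the start, 4 GC boxes and 2 CCAAT boxes. The Hdac9 window at the first start holds none of these motifs and 0 CpG dinucleotides, and the window at the second start holds an AP-1 site 57 bases before it and 2 CpG dinucleotides. The Hdac11 window has 1 each of TGACG, GC box and CCAAT box. Of the windows not printed, that of Hdac6 has 4 GC boxes and 2 CCAAT boxes, as that of Hdac4 does. Those of Hdac7 hold none of the marked motifs but a GC box in 1 of them. Windows were found for 8 of the 10 members. Neither the full cAMP response element (TGACGTCA, 1.55% of all windows), the E-box CACGTG (6.02%) nor the CArG box bound by SRF (1.47%) was found in the windows of the members.

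Compared per kb of gene, Hdac7 had the lowest level of the 10 members. The highest member depended on treatment: the class I gene Hdac2 in water, and the class IIa gene Hdac5 after 1 h of bicuculline. Hdac10, tested but not a member, had group means of 0.215 to 0.334 RPKM. Over the 20 libraries, water and bicuculline together, Hdac2 had a mean of 2.37 ± 0.209 RPKM (SD), Hdac4 of 1.92 ± 0.329, Hdac9 of 1.79 ± 0.319 and Hdac5 of 1.75 ± 0.652. Hdac3 followed at 1.51 ± 0.186 RPKM, Hdac11 at 0.943 ± 0.207 and Hdac8 at 0.897 ± 0.0841. The lowest means were those of Hdac6 (0.660 ± 0.117 RPKM), Hdac1 (0.619 ± 0.0587) and Hdac7 (0.316 ± 0.0637). These SDs include the differences between groups. In this order each neighbouring pair overlapped in its range over libraries except Hdac1 and Hdac7. Hdac8 nevertheless exceeded Hdac6 in 20 of 20 libraries, Hdac2 exceeded Hdac4 in 16 of 20, and Hdac5 exceeded Hdac3 in only 9 of 20. Hdac5 ranged most widely, from 1.03 to 3.15 RPKM. In DMSO water its mean of 1.05 ± 0.0193 RPKM (SD, n = 3) was below that of Hdac3 (1.41 ± 0.0494), Hdac9 (1.38 ± 0.310) and Hdac11 (1.16 ± 0.0865). Hdac3 was also above Hdac5 in MM401 water at 1 h (1.26 against 1.16 RPKM) and 4 h (1.37 against 1.23 RPKM). After 1 h of bicuculline Hdac5 reached 2.51 ± 0.222 RPKM in DMSO and 2.73 ± 0.374 RPKM under MM401, above Hdac3 (1.44 and 1.61 RPKM). The means of Hdac5 and Hdac4 (2.34 and 2.39 RPKM) then also lay above that of Hdac2 (2.22 and 2.21 RPKM). The classes do not form separate bands, because Hdac2 and Hdac1 (both class I) lie at rank 1 and rank 9 of the means over all 20 libraries, and Hdac4 and Hdac7 (both class IIa) at rank 2 and rank 10.

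**Figure D1:**
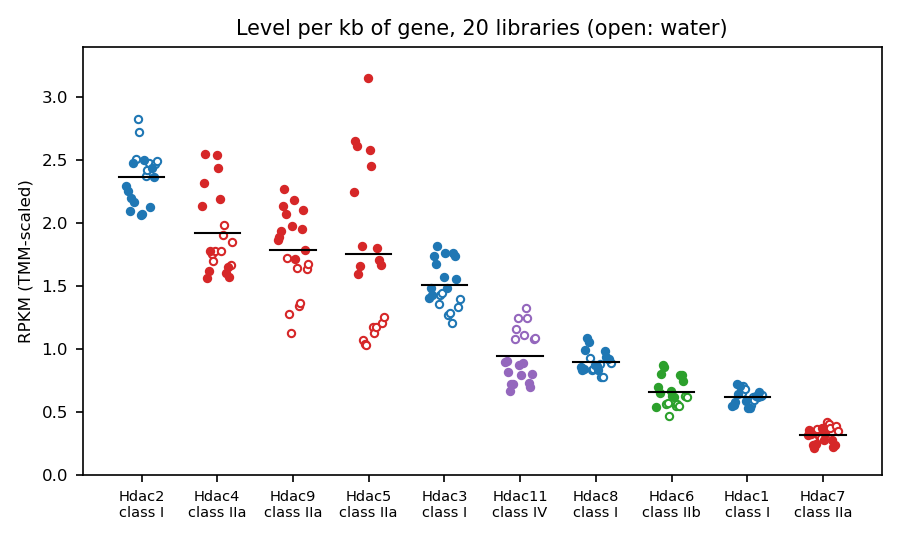
Level of each member per kb of gene (RPKM on the TMM-scaled total, linear axis) in 20 libraries; each point is a library, open for water and filled for bicuculline, and bars are means. Hdac2 is highest at a mean of 2.37 and Hdac7 lowest at 0.316, and Hdac5 spreads from 1.03 to 3.15.

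The counts are over whole genes, introns included, and the members differ widely in length. On mm10, as the table lists them, Hdac5 lies at chr11:102195746-102230172 (34.43 kb), Hdac4 at chr1:91928778-92180341 (251.6 kb), Hdac7 at chr15:97792663-97844502 (51.84 kb) and Hdac9 at chr12:34047581-34917095 (869.5 kb), all on the minus strand. The class I genes are Hdac1 at chr4:129516103-129542646 (26.54 kb, minus), Hdac2 at chr10:36974543-37001888 (27.35 kb, plus), Hdac3 at chr18:37936970-37954988 (18.02 kb, minus) and Hdac8 at chrX:102284637-102505158 (220.5 kb, minus). Hdac6 lies at chrX:7930121-7947889 (17.77 kb, minus) and Hdac11 at chr6:91156814-91174683 (17.87 kb, plus). Hdac7 overlaps Slc48a1, on the other strand, by 30 bases, and use of strand in the counting is not given in the sources used here. Hdac5 contains the microRNA gene Mir8101, which had 0 counts. The other members overlap no gene of the table.

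With bicuculline, Hdac5 rose in all 4 comparisons with water and Hdac9 in 3 of them, Hdac4 rose at 1 h, and Hdac7 was lower at 4 h, so the class IIa genes did not move as a block. A gene is called changed here at an adjusted p under 0.05 (edgeR quasi-likelihood test, Benjamini-Hochberg over 16959 genes), and CPM are counts scaled to a library total of 1e6 after TMM scaling. In bulk cultures a changed share of a cell type and a changed amount of RNA per cell cannot be told apart. Hdac5, a signal-responsive corepressor of MEF2, had 36.9, 35.9 and 35.6 CPM in the DMSO water libraries, 77.5, 91.4 and 89.9 CPM after 1 h of bicuculline and 54.9, 57.1 and 62.7 CPM after 4 h. All bicuculline libraries were above all water libraries, and those of 1 h were above those of 4 h. The log2 fold change was 1.26 ± 0.08 (SE; 2.39-fold, adjusted p = 2.6e-11) at 1 h and 0.69 ± 0.08 (1.61-fold, adjusted p = 2.0e-07) at 4 h. Under MM401, Hdac5 had 40.5, 38.9 and 40.5 CPM in water and 109, 88.8 and 84.4 CPM in bicuculline at 1 h, and 41.5 and 43.4 CPM against 62.2, 58.9 and 57.6 CPM at 4 h. Again no library of one treatment overlapped the other, with log2 changes of 1.23 ± 0.08 (adjusted p = 3.6e-11) and 0.49 ± 0.09 (adjusted p = 1.2e-04). Hdac5 was called higher in all 4 comparisons, and remained so under every alternative tried, leaving out each library in turn included.

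Hdac4, which binds MEF2 and 14-3-3 proteins like Hdac5, rose at 1 h only among the times measured. It had 441, 428 and 448 CPM in DMSO water, 538, 584 and 642 CPM at 1 h and 394, 407 and 447 CPM at 4 h. The 1 h libraries lay above the water libraries and the 4 h libraries overlapped them. The log2 change was 0.42 ± 0.08 at 1 h (adjusted p = 1.1e-04) and -0.08 ± 0.08 at 4 h (adjusted p = 0.43). Under MM401 the levels were 447, 480 and 499 CPM in water and 639, 613 and 551 CPM in bicuculline at 1 h (log2 change 0.34 ± 0.08, adjusted p = 0.0011). At 4 h under MM401 they were 420 and 465 CPM in water and 403, 416 and 395 CPM in bicuculline, a log2 change of -0.13 ± 0.08 (adjusted p = 0.23). That value was -0.22 without replicate 1 of the water group, still not called, and 0.024 with the shallow library put back, and with plain library totals it was called lower (-0.20). The direct comparison of 4 h with 1 h of bicuculline was called lower in both pretreatments, by -0.50 ± 0.08 in DMSO and -0.57 ± 0.08 in MM401.

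Hdac9, the longest member, had 1501, 1111 and 983 CPM in DMSO water, 1624, 1646 and 1685 CPM at 1 h of bicuculline and 1860, 1976 and 1801 CPM at 4 h. Replicate 1 of the water group was higher than the others, and all bicuculline libraries were still above it. The log2 change was 0.46 ± 0.12 at 1 h (adjusted p = 0.0038) and 0.65 ± 0.12 at 4 h (adjusted p = 1.4e-04); without that water library these were 0.66 and 0.84. Under MM401 the water libraries of 1 h had 1428, 1169 and 1187 CPM and the bicuculline libraries 1720, 1900 and 1489 CPM, which do not overlap (0.43 ± 0.12, adjusted p = 0.0069). At 4 h under MM401 the levels were 1424 and 1460 CPM in water and 1702, 1833 and 1554 CPM in bicuculline. Those ranges do not overlap either, yet the change of 0.23 ± 0.14 did not pass the test (adjusted p = 0.17). It was called higher with length correction (0.31) and in a fit of the compared groups alone (0.21), and was 0.50, not called, with the shallow library put back.

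Hdac7, the lowest member per kb, had 19.1, 16.0 and 15.2 CPM in DMSO water, 16.4, 18.5 and 16.7 CPM at 1 h and 12.2, 11.3 and 12.8 CPM at 4 h of bicuculline. Only the 4 h libraries lay wholly below water, and the log2 change was 0.04 ± 0.10 at 1 h (adjusted p = 0.79) and -0.47 ± 0.11 at 4 h (adjusted p = 7.9e-04). Under MM401 it had 21.99, 21.01 and 19.41 CPM in water and 19.5, 14.5 and 16.9 CPM in bicuculline at 1 h, ranges that just overlap. That change of -0.30 ± 0.10 was called (adjusted p = 0.027) but was not called when any of 4 of the 6 libraries was left out (replicates 2 and 3 of bicuculline, replicates 1 and 2 of water; -0.19 to -0.29). At 4 h under MM401 the levels were 20.2 and 18.1 CPM in water and 14.3, 11.4 and 12.5 CPM in bicuculline, a fall of -0.59 ± 0.12 (adjusted p = 3.1e-04) without overlap.

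**Figure D2:**
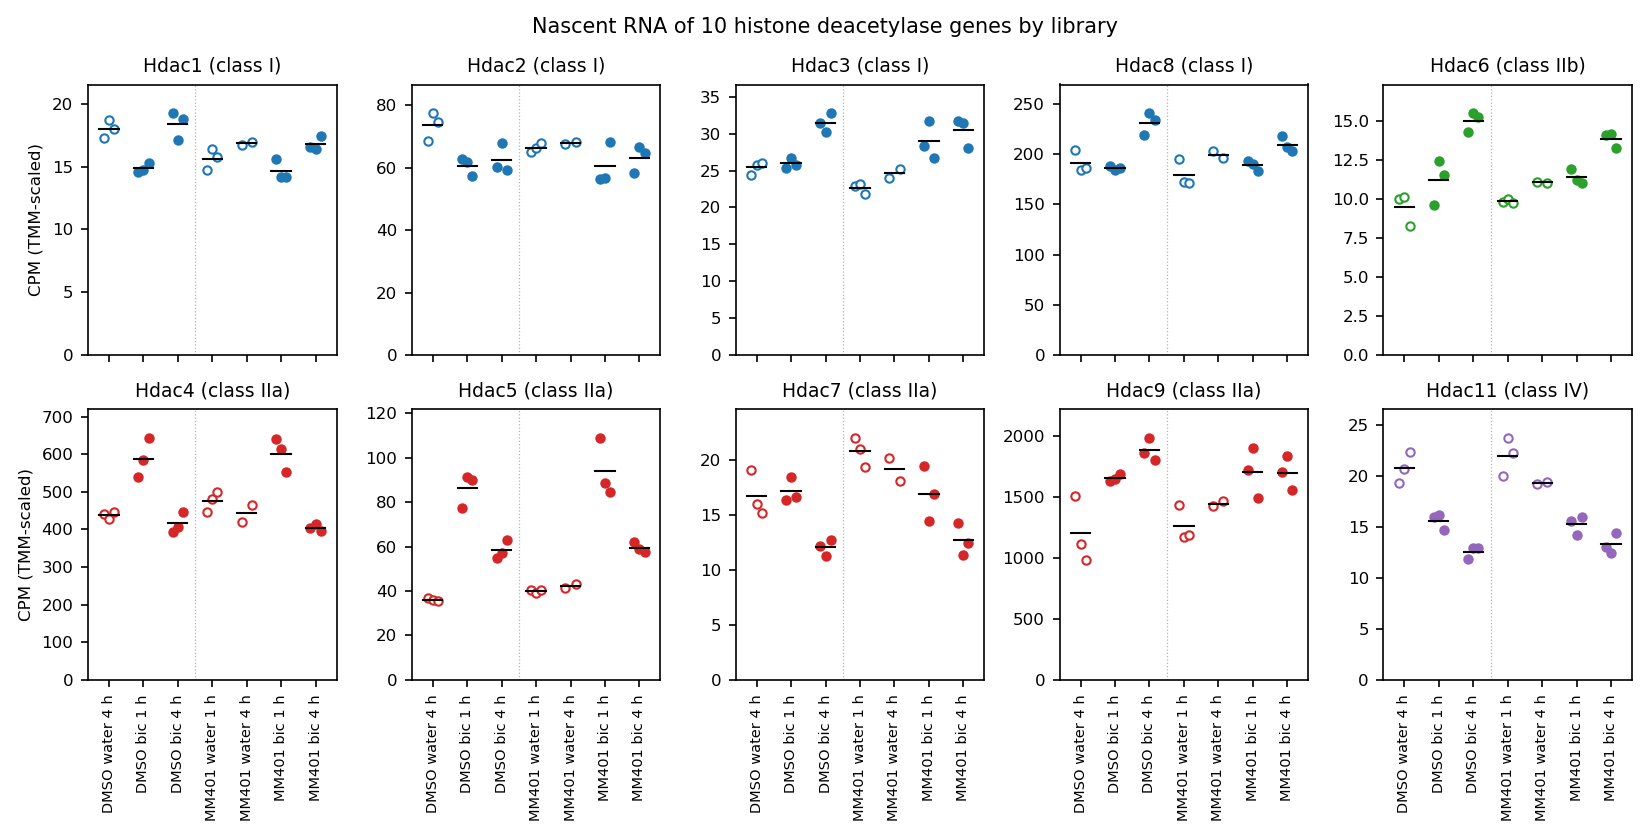
Nascent RNA level (TMM-scaled CPM, linear axis from 0) of each member in the 20 libraries by group; points are libraries, open for water and filled for bicuculline, and bars are group means. Hdac5 is highest in both 1 h bicuculline groups, Hdac4 is highest in those groups too, and Hdac11 is lower in every bicuculline group than in any water group.

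The class I genes changed by at most 0.35 on the log2 scale in the 4 comparisons with water. Hdac1, a catalytic subunit of the Sin3, NuRD and CoREST complexes, had 17.3, 18.7 and 18.0 CPM in DMSO water, 14.6, 14.7 and 15.3 CPM at 1 h and 19.2, 17.1 and 18.8 CPM at 4 h of bicuculline. It was lower at 1 h without overlap (-0.28 ± 0.07, adjusted p = 0.0018), and at 4 h the groups overlapped (0.03 ± 0.07). Under MM401 its change was -0.10 ± 0.07 at 1 h and -0.00 ± 0.08 at 4 h, neither called. Hdac2, the partner of Hdac1 in those complexes, had 68.6, 77.4 and 74.6 CPM in DMSO water against 62.8, 61.8 and 57.5 CPM at 1 h and 60.2, 67.8 and 59.4 CPM at 4 h. Both bicuculline groups lay below water, and both falls were called (-0.28 ± 0.07 and -0.24 ± 0.07, adjusted p = 0.0034 and 0.0095). The fall of Hdac2 at 4 h was not called without replicate 3 of that bicuculline group (-0.20). Under MM401 Hdac2 changed by -0.13 ± 0.07 and -0.10 ± 0.08, neither called. Its 1 h libraries there had 65.1, 66.3 and 67.8 CPM in water and 56.5, 56.6 and 68.3 CPM in bicuculline, so 1 bicuculline library lay above all water libraries. Without that library (replicate 3) the fall was called (-0.22, adjusted p = 0.014), as it was with plain library totals (-0.34).

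With TMM scaling Hdac3 rose in 3 of the 4 comparisons with water and Hdac8 in 1. Hdac3, which deacetylates within NCoR/SMRT, had 24.4, 25.8 and 26.1 CPM in DMSO water, 25.3, 26.8 and 25.8 CPM at 1 h and 31.4, 30.2 and 32.7 CPM at 4 h of bicuculline. The 4 h libraries were all above water (0.31 ± 0.07, adjusted p = 5.2e-04), and those of 1 h overlapped it (0.03 ± 0.07). Under MM401 Hdac3 had 22.9, 23.2 and 21.8 CPM in water and 28.4, 31.7 and 26.7 CPM in bicuculline at 1 h, then 24.0 and 25.2 CPM against 31.8, 31.4 and 28.1 CPM at 4 h. There the rises were without overlap at both times (0.35 ± 0.07, adjusted p = 2.0e-04, and 0.31 ± 0.07, adjusted p = 0.0021), the second lost when replicate 1 of MM401 water at 4 h was left out (0.25). Hdac8 had 204, 184 and 186 CPM in DMSO water and 219, 240 and 234 CPM at 4 h of bicuculline, a rise of 0.27 ± 0.06 (adjusted p = 5.9e-04) without overlap. Its other changes, -0.04 at 1 h in DMSO and 0.07 at both times under MM401, were not called.

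Hdac6 rose and Hdac11 fell. Hdac6, the tubulin deacetylase, had 9.97, 10.2 and 8.30 CPM in DMSO water, 9.60, 12.5 and 11.6 CPM at 1 h and 14.3, 15.5 and 15.2 CPM at 4 h of bicuculline. The 4 h libraries were clearly apart (0.67 ± 0.09, 1.59-fold, adjusted p = 2.0e-06). At 1 h the ranges overlapped, with a call at 0.24 ± 0.09 (adjusted p = 0.031). That call was lost without replicate 2 (0.16) or replicate 3 (0.24) of bicuculline or replicate 3 of water (0.17). It was also lost in a fit of the compared groups alone. Under MM401 Hdac6 had 9.783, 10.01 and 9.768 CPM in water and 11.9, 11.2 and 11.03 CPM in bicuculline at 1 h (0.21 ± 0.09, adjusted p = 0.074). These libraries do not overlap, and the rise was called with DESeq2 (0.23), relative log expression factors (0.23), length correction (0.31) and a fit of the compared groups alone (0.21), while with plain library totals it was -0.0076. At 4 h under MM401 it had 11.09 and 11.05 CPM in water and 14.1, 14.1 and 13.3 CPM in bicuculline (0.32 ± 0.10, adjusted p = 0.013). That last call was lost when either MM401 water library of 4 h was left out (0.30 and 0.29).

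Hdac11 had 19.3, 20.7 and 22.4 CPM in DMSO water, 16.0, 16.2 and 14.7 CPM at 1 h of bicuculline and 11.9, 12.9 and 13.0 CPM at 4 h. The 3 groups did not overlap, and the log2 change was -0.41 ± 0.08 (adjusted p = 2.1e-04) at 1 h and -0.72 ± 0.08 (0.606-fold, adjusted p = 1.3e-07) at 4 h. Under MM401 it had 19.9, 23.7 and 22.3 CPM in water and 15.6, 14.2 and 16.0 CPM in bicuculline at 1 h, then 19.2 and 19.4 CPM against 13.1, 12.5 and 14.4 CPM at 4 h. Both falls were without overlap (-0.53 ± 0.08, adjusted p = 1.65e-05, and -0.54 ± 0.09, adjusted p = 4.0e-05). Hdac11 was called lower in all 4 comparisons and under every alternative tried.

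**Figure D3:**
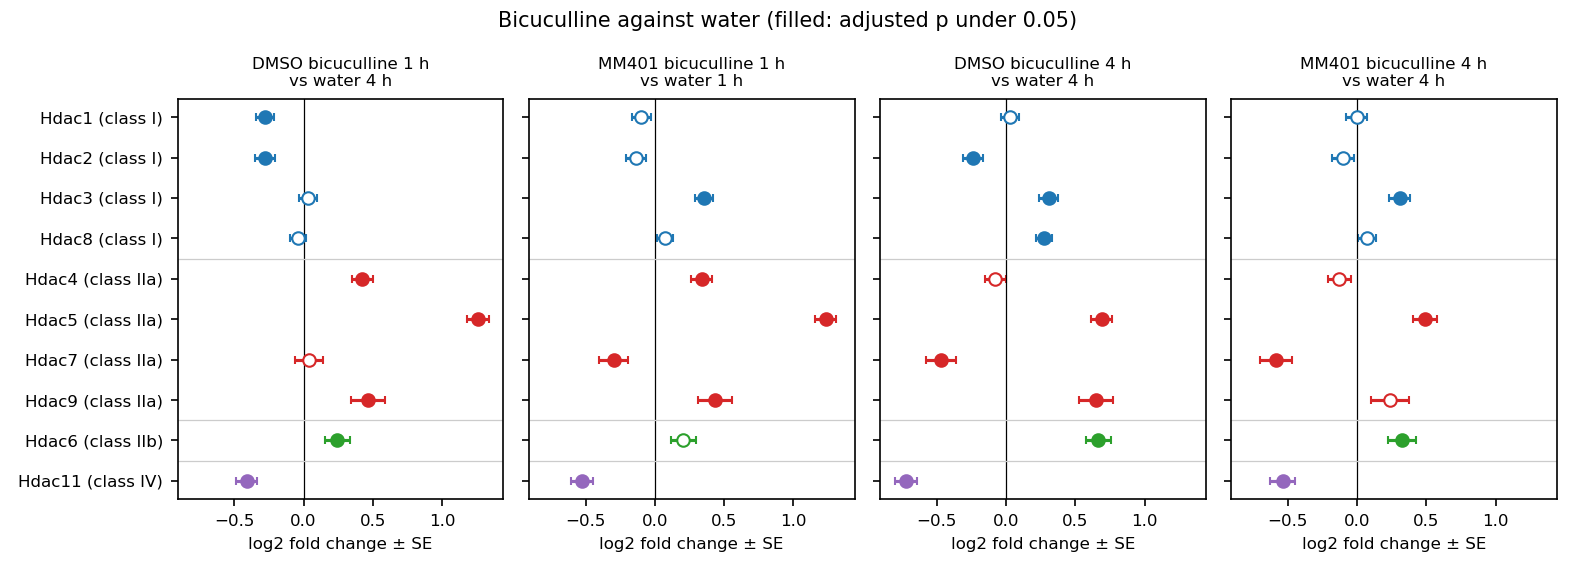
Log2 fold change of each member with bicuculline against water, with its SE, in DMSO and MM401 at 1 h and 4 h; filled points have an adjusted p under 0.05 (edgeR) and colours mark the classes. Hdac5 lies farthest to the right at 1 h (1.26 in DMSO and 1.23 under MM401) and Hdac11 is left of 0 in all panels.

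Counted together, 4 members were called higher and 3 lower at 1 h in DMSO, where 20% of all genes tested were called higher and 24.5% lower. At 4 h in DMSO 5 were higher and 3 lower, against 23.7% and 25.5% of all genes. Under MM401 4 were higher and 2 lower at 1 h (all genes 18.1% and 21.8%), and 3 higher and 2 lower at 4 h (all genes 23% and 21.7%). Since a large share of all genes was called, counts over so few members are not read as particular to them. By class, class I had 0 higher and 2 lower at 1 h in DMSO and class IIa 3 higher and 0 lower; at 4 h class I had 2 higher and 1 lower and class IIa 2 higher and 1 lower. Under MM401 class I had 1 higher and 0 lower at each time, and class IIa 3 higher and 1 lower at 1 h and 1 higher and 1 lower at 4 h. The median log2 change of class IIa was 0.44, 0.29, 0.39 and 0.05 in the order of DMSO 1 h and 4 h and MM401 1 h and 4 h, that of class I was -0.16, 0.15, -0.01 and 0.03, and that of all genes was -0.04, -0.02, -0.00 and 0.02. With plain library totals in place of TMM the median of all genes shifts to -0.23, -0.30, -0.21 and -0.06. The members then split into 3 higher and 4 lower, 3 and 5, 2 and 5, and 2 and 3, against 10.8% and 40.2%, 10.7% and 46.4%, 7.52% and 38.6%, and 16.5% and 24.4% of all genes. No called member changes sign under that scaling. Calls end there for Hdac6 at 1 h in DMSO (0.05), Hdac3 and Hdac8 at 4 h in DMSO (0.03 and 0.0013), Hdac3 and Hdac4 at 1 h under MM401 (0.14 and 0.12) and Hdac6 at 4 h under MM401 (0.25), values that lie above the shifted medians. With the shallow library put back, the calls of Hdac1, Hdac2 and Hdac9 at 1 h in DMSO, Hdac2 at 4 h in DMSO and Hdac4, Hdac7 and Hdac9 at 1 h under MM401 end.

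Between 1 h and 4 h of bicuculline the class IIa genes Hdac4, Hdac5 and Hdac7 fell in both pretreatments, and Hdac1 and Hdac6 rose. In DMSO the falls were -0.50 ± 0.08 for Hdac4, -0.57 ± 0.08 for Hdac5 and -0.51 ± 0.11 for Hdac7, and Hdac11 fell by -0.31 ± 0.08. The rises were 0.31 ± 0.07 for Hdac1, 0.28 ± 0.07 for Hdac3, 0.31 ± 0.06 for Hdac8 and 0.42 ± 0.09 for Hdac6. Hdac9 (0.19 ± 0.12) and Hdac2 (0.04 ± 0.07) did not pass the test. The rises of Hdac1 and Hdac3 were not called with plain library totals (0.22 and 0.19) or with the shallow library put back (0.26 and 0.23). That makes 4 members higher and 4 lower, where 19.1% of all genes were higher and 15.2% lower (2 and 4 with plain library totals, 11.9% and 18.5% of all genes). Under MM401 Hdac4 (-0.57 ± 0.08), Hdac5 (-0.66 ± 0.08) and Hdac7 (-0.41 ± 0.11) fell, and Hdac1 (0.20 ± 0.07, adjusted p = 0.025) and Hdac6 (0.28 ± 0.09, adjusted p = 0.017) rose, against 17.5% of all genes higher and 16% lower (3 and 3 members with plain library totals, 21.2% and 11.5% of all genes). Without replicate 3 of MM401 with bicuculline at 1 h both rises were lost (0.15 and 0.23) and 3 members were called, where 14.6% of all genes were called higher and 17.3% lower. The rise of Hdac1 was also lost without replicate 2 of that group or replicate 3 of the 4 h group (0.18 and 0.17), and that of Hdac6 without replicate 2 of the 1 h group or replicates 1 or 2 of the 4 h group (each 0.27). With the shallow library put back the rises of Hdac1 and Hdac6 under MM401 were not called, where 9.85% of all genes were higher and 11.9% lower. In water under MM401, 4 h against 1 h, 0 members were called by edgeR or DESeq2, with 1 at an unadjusted p under 0.05 (Hdac8). Of all genes 0.265% were higher and 0.601% lower there.

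Relative to class I, class IIa was raised after 1 h of bicuculline in both pretreatments and after 4 h it lay nearer to water. The measure is the mean log2 CPM of the 4 class IIa genes minus that of the 4 class I genes in a library, given without a test. It was 1.57, 1.33 and 1.30 in the DMSO water libraries, 2.00, 2.13 and 2.15 at 1 h and 1.49, 1.49 and 1.56 at 4 h of bicuculline. The 1 h libraries lay above all the others, and the 4 h libraries fell between the highest and the next water library. Under MM401 at 1 h it was 1.76, 1.68 and 1.72 in water and 2.23, 2.07 and 1.99 with bicuculline. The 4 h values under MM401 were 1.63 and 1.63 in water against 1.63, 1.54 and 1.53 with bicuculline. The 1 h bicuculline libraries were again the highest, and the 1 h water libraries lay above those of both 4 h groups. The difference from water was 0.69 at 1 h and 0.11 at 4 h in DMSO, and 0.38 and -0.07 under MM401, with a pooled SD within groups of 0.0888. The last of these turned to 0.07 with the shallow library put back. From 1 h to 4 h of bicuculline it dropped by 0.58 in DMSO and by 0.53 in MM401. At 4 h in DMSO the difference was 0.20 without replicate 1 of DMSO water and 0.06 without replicate 3. At 1 h in DMSO the class IIa mean changed by 0.55 and the class I mean by -0.14, and under MM401 they changed by 0.42 and 0.05. Hdac5 carried a large share of it under MM401 and a smaller one in DMSO: with class IIa taken as Hdac4, Hdac7 and Hdac9, a choice made after seeing the data, the difference from water was 0.46 at 1 h and -0.05 at 4 h in DMSO, and 0.11 and -0.23 under MM401. The direction at 4 h in DMSO turned to -0.024 after a correction for gene length, described next.

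**Figure D4:**
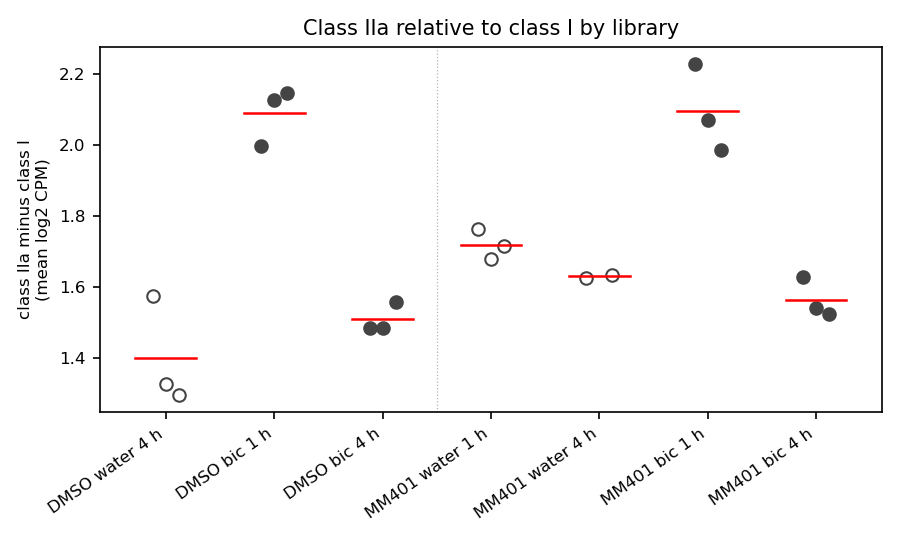
Mean log2 CPM of class IIa minus class I in each of 20 libraries by group, open points for water and filled for bicuculline, with red bars at group means; the axis does not start at 0. Both 1 h bicuculline groups (means 2.09 and 2.10) lie above every other library, and replicate 1 of DMSO water (1.57) lies above its group.

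Gene length moved with the response over all genes, and the classes differ in length. At 1 h in DMSO the median log2 change was -0.18 for genes under 20 kb (7714 genes), -0.06 for 20 to 50 kb, 0.07 for 50 to 100 kb, 0.15 for 100 to 200 kb, 0.22 for 200 to 400 kb and 0.26 over 400 kb (330 genes). Hdac5, at 34.43 kb, was at 1.26 in a bin with a median of -0.06. Hdac4 was at 0.42 where its bin had 0.22, and Hdac9 at 0.46 where its bin had 0.26. Hdac8 (220.5 kb), in the same bin as Hdac4 (251.6 kb), was at -0.04. At 4 h in DMSO the short genes Hdac6 (0.67) and Hdac3 (0.31) stood above the median of their bin, -0.16, and Hdac11 (-0.72) below it, while Hdac8 (0.27) was near the 0.23 of its bin and Hdac4 (-0.08) below it. Under MM401 at 4 h the bins ran from -0.05 to 0.09 with no such order. At 1 h under MM401 they ran from -0.07 under 20 kb to 0.26 over 400 kb. For 4 h against 1 h of bicuculline under MM401 the order was reversed, from 0.07 under 20 kb to -0.25 over 400 kb. The bin of Hdac4 was at -0.18 there. When each library was corrected for its trend with length, Hdac4 and Hdac9 at 1 h in DMSO fell to 0.20 and 0.18 and were still called. The rises of Hdac4 and Hdac9 at 1 h under MM401 fell to 0.13 each and were no longer called, nor were those of Hdac1 (0.15) and Hdac6 (0.22) from 1 h to 4 h under MM401. With that correction Hdac8 was called lower at 1 h in DMSO (-0.25). The rise of Hdac8 at 4 h in DMSO fell to 0.05 with it and was no longer called, Hdac4 was called lower there (-0.31), and Hdac9 was called higher at 4 h under MM401 (0.31). Hdac5, Hdac6 at 4 h and Hdac11 kept their calls. The difference of class IIa from class I against water at 1 h became 0.54 in DMSO and 0.24 under MM401.

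**Figure D5:**
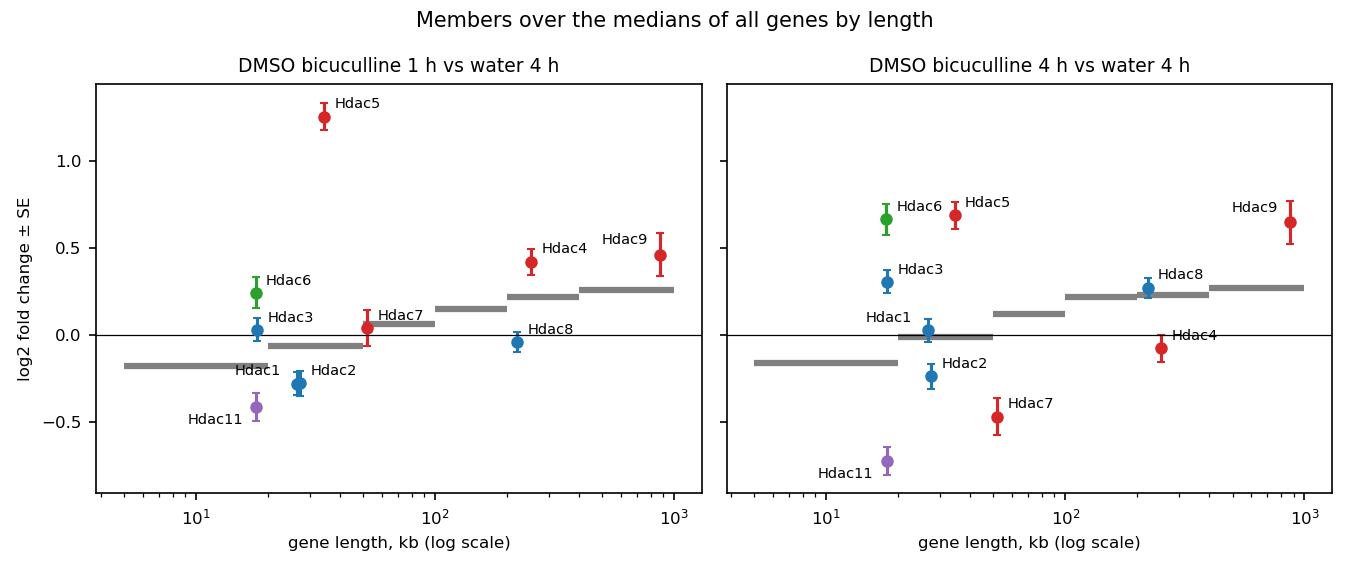
Log2 fold change (with SE) of each member against gene length on a log axis, for bicuculline at 1 h and 4 h against water in DMSO; grey bars are medians over all genes tested in 6 length bins, the outer ones open-ended, and colours mark the classes. Hdac5 (1.26 at 1 h) lies far above its bin, and Hdac4 and Hdac9 lie 0.42 and 0.46 high where their bins are at 0.22 and 0.26.

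MM401 itself changed no member by the test used. Against DMSO the members' log2 changes ran from -0.11 (Hdac2) to 0.27 (Hdac9) for the 4 h water groups, from -0.04 (Hdac11) to 0.16 (Hdac3) for 1 h of bicuculline, and from -0.15 (Hdac9) to 0.08 (Hdac11) for 4 h of bicuculline. The 95% intervals of the members together spanned -0.28 to 0.53, -0.23 to 0.29 and -0.39 to 0.29. These ends come from different members and are not a limit of detection. A change within a member's own interval is not excluded for it. By edgeR 0 members were called in each, with 2 (Hdac5 and Hdac6), 1 (Hdac3) and 1 (Hdac8) at an unadjusted p under 0.05, and DESeq2 called 0. Of all genes, 0.0826%, 0.0059% and 0% were called. The response under MM401 minus that in DMSO (the interaction) was called for 0 members at 4 h and 0 at 1 h by edgeR and by DESeq2, and for 0% of all genes at each time by edgeR. Without replicate 1 of DMSO water the interaction was called for 9.15% of all genes at 4 h and 0.572% at 1 h, and MM401 against DMSO in water for 7.5%. Of all genes DESeq2 called 166 for MM401 against DMSO in water (edgeR 14), 13 with bicuculline at 1 h (edgeR 1), 7 with bicuculline at 4 h (edgeR 0), 294 for the interaction at 4 h and 10 for that at 1 h. In these 5 comparisons 2194, 540, 1309, 2552 and 1326 genes had an unadjusted edgeR p under 0.05. At 4 h 3 members (Hdac8, Hdac9 and Hdac6) and at 1 h 0 members had an unadjusted p under 0.05. The interactions at 4 h ranged from -0.41 (Hdac9) to 0.19 (Hdac11), and at 1 h, with both responses against water at 4 h, from -0.22 (Hdac9) to 0.20 (Hdac3). For Hdac9 at 4 h the value of -0.41 ± 0.18 (adjusted p = 0.30) combines a difference between pretreatments of 0.27 in water and of -0.15 in bicuculline. Without that replicate 1 it was -0.61 (adjusted p = 0.013), and MM401 against DMSO in water was then 0.46 (adjusted p = 0.017) in place of 0.27 (adjusted p = 0.41). Class IIa minus class I was higher under MM401 than DMSO by 0.23 for water at 4 h, and by 0.10 with the shallow library put back. For 1 h and 4 h of bicuculline the pretreatments differed by less than the pooled SD of 0.0888.

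Among the complexes and partners through which these enzymes act, changes with bicuculline went both ways. The lists were written from general knowledge, but with earlier results of these data known, so their counts are not independent of the data. The genes named are those called with the largest and the smallest changes at 4 h in DMSO. Of 37 tested genes of the corepressor complexes (NCoR/SMRT, Sin3, NuRD, CoREST and MiDAC), 8 were higher and 15 lower at 1 h in DMSO and 8 higher and 9 lower at 4 h, against the same 20%, 24.5%, 23.7% and 25.5% of all genes. Sap30, a subunit of the Sin3 complex, rose by 1.84 at 1 h and 2.06 ± 0.11 at 4 h. Mbd2 (0.58 ± 0.05) and Rcor1 (0.53 ± 0.07) rose at 4 h, and the paralogues Mbd3 (-0.69 ± 0.14) and Rcor2 (-0.72 ± 0.16) fell, as did Mta1 (-0.57 ± 0.07). Mbd2, Mbd3 and Mta1 are subunits of NuRD, and Rcor1 and Rcor2 of CoREST. Under MM401 the counts were 8 higher and 9 lower at 1 h (all genes 18.1% and 21.8%) and 5 higher and 8 lower at 4 h (all genes 23% and 21.7%).

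Of 23 tested partners of class IIa (MEF2 factors, kinases that phosphorylate the enzymes, and 14-3-3 proteins), 15 were higher and 2 lower at 1 h in DMSO (all genes 20% and 24.5%) and 15 higher and 4 lower at 4 h (all genes 23.7% and 25.5%). Under MM401 the counts were 15 higher and 2 lower at 1 h (all genes 18.1% and 21.8%), and 10 higher and 4 lower at 4 h (all genes 23% and 21.7%). All 3 salt-inducible kinases were among the highest at 4 h in DMSO, with Sik2 at 1.72 ± 0.12, Sik1 at 1.14 ± 0.08 and Sik3 at 0.87 ± 0.08. The calmodulin-dependent kinase genes went both ways at 4 h in DMSO: Camk2a (-0.48 ± 0.09), Camk2b (-0.47 ± 0.07) and Camk2g (-0.27 ± 0.05) fell, and Camk2d (0.38 ± 0.06), Camk1d (0.29 ± 0.11), Camk4 (0.28 ± 0.08) and Camk1g (0.19 ± 0.06) rose. Camk2g was called higher at 1 h in DMSO (0.25 ± 0.05). The 4 kinase genes that rose are named outside the rule, after their values were seen. The median of the list was 0.31, 0.28, 0.27 and 0.11 in the order DMSO 1 h and 4 h and MM401 1 h and 4 h. Of 7 sirtuins, the NAD-dependent deacetylases, 0 were higher and 4, 3, 4 and 3 lower in that order, where 24.5%, 25.5%, 21.8% and 21.7% of all genes were lower, with Sirt7 (-0.75 ± 0.13), Sirt6 (-0.55 ± 0.12) and Sirt3 (-0.53 ± 0.08) lower at 4 h in DMSO. Of 13 acetyltransferases, the enzymes of the opposite reaction, 1 was higher and 1 lower at 1 h in DMSO (all genes 20% and 24.5%) and 5 were higher and 2 lower at 4 h (all genes 23.7% and 25.5%). Under MM401 the counts were 2 higher and 1 lower at 1 h (all genes 18.1% and 21.8%) and 2 higher and 3 lower at 4 h (all genes 23% and 21.7%). Those at 4 h in DMSO included Crebbp (0.31 ± 0.06), Hat1 (0.30 ± 0.08) and Ep300 (0.27 ± 0.05) upward and Kat2a (-0.63 ± 0.14) and Kat8 (-0.29 ± 0.09) downward.

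Across the 7 group means, centred on the log2 scale, the members most alike were Hdac1 and Hdac8 (root mean square difference 0.0909), Hdac3 and Hdac8 (0.101) and Hdac1 and Hdac2 (0.102), all class I. The least alike were Hdac5 and Hdac11 (0.726) and Hdac5 and Hdac7 (0.627), the latter both class IIa, while Hdac7 and Hdac11 differed by 0.143. Small differences are easier to reach for members that vary little. Among 11790 named genes, those closest to Hdac5 were Ube2ql1 (0.0567), Sdcbp (0.0620) and Tbc1d9 (0.0680), and those closest to Hdac9 were Sh3rf1, Plcb1 and Hecw2 (0.0331 to 0.0402). Closest to Hdac11 were Slc25a44, Exosc1 and Exosc2 (0.0371 to 0.0424), to Hdac7 Ndor1, Efcab2 and Ccne1 (0.0361 to 0.0406), to Hdac6 Sh3yl1, Cop1 and Tiam1 (0.0250 to 0.0301), and to Hdac3 Eci1, Arhgap24 and Ogt (0.0311 to 0.0339).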

How the data were processed

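The authors deposited raw read counts over whole genes, for 24984 genes with mm10 coordinates; per the file headers each column is 1 library. Bowtie2, featureCounts, UMI-tools, DESeq2 and deepTools are named in the submitters' processing notes without versions or roles; strand use is not given in the sources used here. The members and lists were chosen with earlier results of these data known.

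Counts of 20 libraries in 7 groups were fitted in 1 model with edgeR 4.0.16 (R 4.3.3, limma 3.58.1): filterByExpr by group (minimum count 10), TMM, robust quasi-likelihood F test, two-sided, Benjamini-Hochberg over 16959 genes, called at an adjusted p under 0.05, in 12 comparisons. Intervals are the fold change ± 1.96 SE. RPKM used the length column of the table. The edgeR test was tried on simulated counts with a constant spread, for bicuculline at 1 h in DMSO only. Other steps were not tested in this way. Named were all members, up to 3 called genes with the largest and 3 with the smallest change at 4 h in DMSO from each list, and the 3 genes nearest in pattern to members called in 3 or 4 comparisons with water (mean of at least 2 CPM). Promoters came from RefSeq; protein features were not analysed here. Mef2b did not pass the filter and Mideas was not analysed here.

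No 2 replicates agreed within sampling noise (chi-square per degree of freedom 6.14 to 78.5 over 19 pairs). Groups share replicate numbers: same-numbered libraries' deviations correlated at -0.229 to 0.278 (median 0.0898; 25 of 57 over 0.1), so the numbers were in general not taken as pairs. Of the groups compared, only DMSO and MM401 with bicuculline at 4 h had all 3 over 0.1 (0.15, 0.107 and 0.172), and the blocked fit called 0 members there as well. Alternatives were DESeq2 1.42.0, other scaling, filters, gene length correction, all 21 libraries, a replicate block, only the compared groups, a log2 change of at least 0.2, a prior count of 0.5 for the class difference, and leaving out each library in turn.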

Additional observations from a re-analysis of the deposited data

How the results depend on the processing

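Over 62 single-member results, 949 of 1048 alternative values kept their direction and side of the threshold. These results cover bicuculline against water and 4 h against 1 h of bicuculline. From the other comparisons only Hdac9 is included, for MM401 in water and for the interaction at 4 h. The setting that also required a log2 change of at least 0.2 reused the main fit. All called changes already exceeded 0.2, so its 62 values could not differ. The low depth of 1 library limits its group to 2 libraries, and when 1 of these is left out the lone library is assumed to vary like the other groups. With all 21 libraries 4 members were called at 1 h in DMSO, 3 at 1 h under MM401 and 3 for 4 h against 1 h under MM401, while the share of all genes called went from 44.6% to 31.1%, from 39.9% to 27.4% and from 33.6% to 21.7%. Then class IIa minus class I was 0.0658 at 4 h under MM401, 0.0997 for MM401 against DMSO in water, -0.22 for water 4 h against 1 h, -0.0443 for the interaction at 4 h and -0.0935 at 1 h; Hdac4 at 4 h under MM401 was 0.024, Hdac9 for MM401 in water -0.016 and Hdac2 for 4 h against 1 h in DMSO -0.0014. Hdac2 in that comparison was -0.044 with plain totals, -0.012 with upper quartile factors and -0.0068 with the stricter filter. With plain totals Hdac3 (-0.16) and Hdac7 (-0.15) at 1 h in DMSO, Hdac1 at 4 h in DMSO (-0.25; -0.035 with upper quartile factors), Hdac8 (-0.14) and Hdac6 (-0.0076) at 1 h under MM401, Hdac8 at 4 h under MM401 (-0.0056) and Hdac9 for 4 h against 1 h under MM401 (0.075) turned sign. Length correction turned Hdac8 at 1 h under MM401 (-0.12) and Hdac9 for 4 h against 1 h under MM401 (0.28), and gave class differences of 0.54 and -0.024 in DMSO, 0.24 at 1 h under MM401, -0.42 for 4 h against 1 h under MM401 and -0.034 for the interaction at 4 h. With class IIa taken without Hdac5, chosen after seeing the data, its difference from class I was 0.455 and -0.0508 in DMSO and 0.109 and -0.228 under MM401 at 1 h and 4 h. The causes were not tested beyond that. Leaving out each library gave 3 to 5 members at 4 h under MM401 (3 without replicate 1 of its water group, with 31.8% of all genes called in place of 44.6%), 3 to 5 for 4 h against 1 h under MM401 (27.3% to 31.9% of all genes in place of 33.6%), and 0 to 1 for MM401 in water and for the interaction at 4 h. By the same leave-one-out, values crossed 0 for Hdac7 (-0.018 to 0.14) and Hdac8 (-0.048 to 0.0093) at 1 h in DMSO, Hdac1 at 4 h in DMSO (-0.0035 to 0.078) and MM401 (-0.035 to 0.012), Hdac2 for 4 h against 1 h in DMSO (-0.035 to 0.077), and Hdac3 (-0.013 to 0.14) and Hdac9 (-0.12 to 0.081) for 4 h against 1 h under MM401. With the replicate block 61 of 62 results were the same, and Hdac8 for 4 h against 1 h under MM401 became called (0.15, edgeR adjusted p = 0.043); whether numbers pair libraries is not given.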
